A study of Homo sapiens with 8 samples.

Results

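The 10 genes described here belong to the transforming growth factor beta (TGF-beta) pathway and were followed across sublines of 2 human esophageal squamous cell carcinoma lines: the ligands TGFB1 and TGFB2, the receptors TGFBR1 and TGFBR2, the feedback inhibitors SMAD7, SKIL, PMEPA1 and BAMBI, and the target genes ID1 and ID3. They are 10 of 14180 genes tested, and each is represented by the probe set with the highest mean over all 8 arrays among those annotated with that symbol alone. Transcripts were measured on Affymetrix arrays, 2 per group, in 180D and 180U cells of the line KYSE180 and in 30D and 30U cells of the line KYSE30. Both lines went through 4 rounds of selection in transwells, chambers with a porous membrane. The D cells crossed the membrane and the U cells did not, and the labels call D the more motile fraction. All 4 groups share the 4 rounds of selection and 2 further passages in culture, so the U cells are selected cells too and no unselected parental culture was compared. Each D array shares its parental population with 1 U array, and the replicates of a group are populations of 1 cell line that were selected separately.

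TGF-beta ligands are secreted in a latent form and, once released, bind TGFBR2, which activates TGFBR1, and the receptor pair phosphorylates SMAD2 and SMAD3. These join SMAD4 and enter the nucleus, where they switch on target genes that include the pathway's own inhibitors. Bone morphogenetic proteins (BMPs) use related receptors and SMAD1, SMAD5 and SMAD9, and the ID genes are their best known direct targets. In epithelial cells the TGF-beta pathway is known both for growth arrest and for changes in adhesion and movement.

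Of the 10 genes, 5 passed the test between 30D and 30U cells, against 16.5% of all genes. The RefSeq sequence before the transcription start of these 5 (build GRCh38.p14) is printed because activated SMAD complexes bind short motifs in promoters. Each line holds the 250 bases before the start of the only window listed for that gene. Capitals mark AGAC, the core of the SMAD box, read on either strand (so also GTCT), and GGCGCC, a motif bound by SMAD1 and related SMADs, which reads the same on both strands.
TGFB2, chr1:218345086-218345335, plus strand: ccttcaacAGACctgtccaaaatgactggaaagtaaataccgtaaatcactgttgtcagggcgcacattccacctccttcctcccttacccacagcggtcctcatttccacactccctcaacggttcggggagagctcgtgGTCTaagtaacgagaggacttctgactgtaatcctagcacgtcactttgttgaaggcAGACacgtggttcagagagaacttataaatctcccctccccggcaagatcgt
SKIL, chr3:170357465-170357714, plus strand: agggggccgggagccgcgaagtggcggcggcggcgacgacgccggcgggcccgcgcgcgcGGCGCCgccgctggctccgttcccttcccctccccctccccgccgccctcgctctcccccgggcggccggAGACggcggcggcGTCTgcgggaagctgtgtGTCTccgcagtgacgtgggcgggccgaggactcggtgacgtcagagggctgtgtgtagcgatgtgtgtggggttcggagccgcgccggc
BAMBI, chr10:28677271-28677520, plus strand: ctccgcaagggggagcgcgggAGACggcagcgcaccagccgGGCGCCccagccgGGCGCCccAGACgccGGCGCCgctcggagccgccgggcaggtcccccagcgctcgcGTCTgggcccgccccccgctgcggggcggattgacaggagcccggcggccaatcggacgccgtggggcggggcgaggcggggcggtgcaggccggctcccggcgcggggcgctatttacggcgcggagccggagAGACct
ID1, chr20:31605039-31605288, plus strand: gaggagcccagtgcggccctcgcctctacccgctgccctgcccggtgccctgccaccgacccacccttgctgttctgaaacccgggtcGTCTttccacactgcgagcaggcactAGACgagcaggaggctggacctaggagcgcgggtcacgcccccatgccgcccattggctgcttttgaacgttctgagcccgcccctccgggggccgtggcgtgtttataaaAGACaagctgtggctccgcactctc
ID3, chr1:23559502-23559751, minus strand: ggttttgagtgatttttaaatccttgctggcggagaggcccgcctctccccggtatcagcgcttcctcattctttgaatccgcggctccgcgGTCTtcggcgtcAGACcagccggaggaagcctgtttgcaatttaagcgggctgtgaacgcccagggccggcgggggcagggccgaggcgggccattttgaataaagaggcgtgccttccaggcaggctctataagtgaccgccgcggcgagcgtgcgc
The core AGAC occurred 3 times before TGFB2, 3 times before SKIL, 4 times before BAMBI, 3 times before ID1 and 2 times before ID3. Its longer form CAGAC, which contains AGAC, occurred 2 times before TGFB2, 1 time before SKIL, 2 times before BAMBI, 1 time before ID3 and 0 times before ID1. GGCGCC occurred 3 times before BAMBI and 1 time before SKIL, and was not found in the other 3 windows. Such short motifs are common. Of 35116 RefSeq windows of the same length, 77.5% held AGAC, 38.0% held CAGAC and 16.4% held GGCGCC. All 10 genes matched RefSeq, with 23 windows in total, of which 19 held AGAC, 12 held CAGAC and 4 held GGCGCC. A match describes the letters of the window and is not evidence that a SMAD binds there.

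The arrays had medians between 5.02 and 5.04 on the log2 scale after the authors' normalization. The first 180D array stood apart in 2 controls of RNA quality. Its ACTB signal was 1.92 log2 higher at the 3′ end than at the 5′ end, where the remaining 7 arrays gave 1.06 to 1.42. Its 18S rRNA control read 11.47, where theirs read 12.35 to 12.54. Another control, the GAPDH signal at the 3′ end minus that at the 5′ end, was 0.152 and 0.14 on the 180D arrays and 0.101 to 0.124 on the others, so it moved with the whole 180D group, and its part in the results was not tested. Where a call between 180D and 180U cells was lost without the first 180D array, this is said beside it. Of 10 markers of squamous epithelium, 8 were measured. CDH1 and DSP, which join epithelial cells, had group means between 10.71 and 12.20 in all 4 groups. Those of JUP, ITGB4 and SFN lay between 9.06 and 12.96. PKP1 had means of 10.18 in 180D and 10.28 in 180U cells but 4.61 in 30D and 4.90 in 30U cells. The squamous list averaged 11.45 to 11.60 on the 180D and 11.58 to 11.66 on the 180U arrays. On the 30D arrays it averaged 8.73 to 8.87 and on the 30U arrays 8.57 to 8.59. The basal keratin KRT5 had means of 12.27 in 180D and 12.30 in 180U cells, against 4.84 in 30D and 4.63 in 30U cells. KRT14 likewise had means of 13.38 in 180D and 13.62 in 180U cells but 4.13 in 30D and 3.54 in 30U cells, so KYSE30 lacked high levels of these defining keratins. Averaged over all arrays, of 6 measured immune markers only CD3E reached the filter value of 4.46, below which a probe set is treated here as dim, and of the 8 fibroblast markers 4 lay above it (COL1A1, DCN, PDGFRB and THY1) and 4 below (COL1A2, COL3A1, LUM and PDGFRA). COL1A1 had means of 7.84 in 180D and 7.25 in 180U cells, and of 6.63 in 30D and 7.02 in 30U cells. The summed fibroblast list averaged 4.77 to 4.81 per gene on the 180D arrays and 4.58 to 4.69 on the 180U arrays, with 4.5 to 4.57 on the 30D and 4.56 to 4.58 on the 30U arrays. Of the 6 endothelial markers, CLDN5, PECAM1, TEK and VWF averaged above the filter value and KDR and CDH5 below it, although CDH5 had a mean of 4.71 in 30U cells. The list averaged 4.49 to 4.52 on the 180D, 4.56 to 4.57 on the 180U, 4.63 to 4.64 on the 30D and 4.70 to 4.76 on the 30U arrays. The part of these lists in the results was not tested.

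Between 180D and 180U cells 1 of the 10 genes passed the limma test at an adjusted p under 0.05, against a background of 3.75% of all genes, and this was TGFBR2, which rose. Between 30D and 30U cells 5 of 10 passed, against 16.5% of all genes. TGFB2, SKIL, ID1 and ID3 fell there and BAMBI rose. The median change of the 10 genes was 0.08 in KYSE180 and -0.22 in KYSE30, where the medians of all genes were 0.02 and 0.01. The 2 arrays of one group did not overlap those of the other for 6 of 10 genes in KYSE180 and 9 of 10 in KYSE30, which has to be read against 44.6% and 64.7% of all genes. The KYSE180 median and the 6 genes include TGFB2, whose KYSE180 values all lie below the filter value and are not read.

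**Figure D1:**
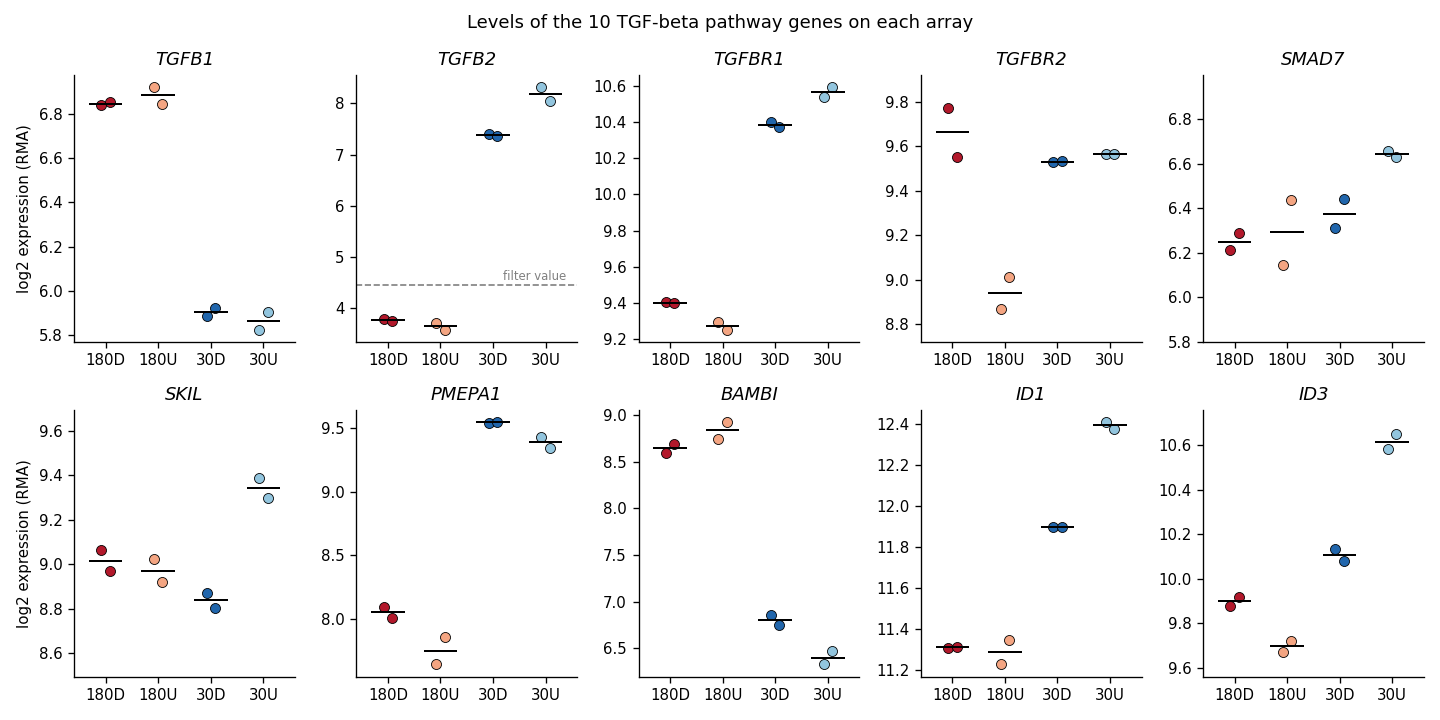
Log2 expression (RMA) of the 10 genes on each of the 8 arrays, one panel per gene, with groups in the order 180D, 180U, 30D and 30U. Points are arrays and bars are group means. TGFBR2 lies higher in 180D than in 180U cells, and in 30D cells TGFB2, SKIL, ID1 and ID3 lie lower and BAMBI higher than in 30U cells.

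The ligand TGFB1 did not pass the test in either line, and TGFB2 fell in the motile KYSE30 cells. TGFB1, the most widely expressed ligand, read 6.84 and 6.85 in 180D cells, against 6.92 and 6.85 in 180U cells, and 5.89 and 5.92 in 30D cells, against 5.82 and 5.90 in 30U cells. The lines were well apart and the D and U arrays overlapped within both lines. The change was -0.04 ± 0.06 (log2, D minus U, ± SE, n = 2 arrays per group) in KYSE180 with a limma adjusted p of 0.772, and 0.04 ± 0.06 in KYSE30 with 0.685.

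TGFB2, the second ligand of the family, read 3.79 and 3.76 in 180D cells and 3.72 and 3.59 in 180U cells. All 4 values lie below the filter value of 4.46, so TGFB2 entered the tests only through KYSE30 and its change in KYSE180 was not read. In KYSE30 the gene read 7.40 and 7.36 in 30D cells, against 8.32 and 8.05 in 30U cells. Both 30D arrays lay below both 30U arrays. The change was -0.81 ± 0.09, a level 1.75-fold lower, with a limma adjusted p of 0.0022, and it was -0.92 in one parental population and -0.70 in the other.

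Of the receptors, TGFBR2 rose in the motile KYSE180 cells and not in KYSE30. TGFBR2, the type II receptor that binds the ligand first, read 9.77 and 9.55 in 180D cells, against 8.87 and 9.01 in 180U cells. Both 180D arrays lay above both 180U arrays, which were the lowest of the series on this probe set. The change was 0.72 ± 0.08, a level 1.65-fold higher, with a limma adjusted p of 0.00543. It was 0.68 in one parental population and 0.76 in the other, and 0.61 with an adjusted p of 0.0246 without the first 180D array. In KYSE30 the values were 9.53 and 9.53 in 30D cells and 9.57 and 9.57 in 30U cells, with a change of -0.04 ± 0.08 and a limma adjusted p of 0.82.

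TGFBR1, the type I receptor whose kinase phosphorylates the SMADs, read 9.40 and 9.40 in 180D cells, against 9.30 and 9.25 in 180U cells, and 10.40 and 10.37 in 30D cells, against 10.54 and 10.59 in 30U cells. The D and U arrays did not overlap in either line, with D above U in KYSE180 and below it in KYSE30. Neither change passed the test. It was 0.13 ± 0.05 in KYSE180 (limma adjusted p 0.243) and -0.18 ± 0.05 in KYSE30 (0.0512, or 0.00876 with an intensity trend in the variance, 0.0273 with a stricter filter and 0.0368 with centred arrays, but 0.257 at the highest with an array left out).

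Among the inhibitors, SKIL fell and BAMBI rose in 30D cells, while SMAD7 and PMEPA1 did not pass the test. SKIL, a corepressor that binds SMAD complexes in the nucleus and is itself induced by TGF-beta, read 9.06 and 8.97 in 180D cells and 9.02 and 8.92 in 180U cells, which overlap, with a change of 0.04 ± 0.07 and a limma adjusted p of 0.767. In KYSE30 it read 8.87 and 8.80 in 30D cells, against 9.39 and 9.30 in 30U cells. The 30U arrays were the highest of the series and the 30D arrays the lowest. The change was -0.51 ± 0.07, a level 1.42-fold lower, with a limma adjusted p of 0.00348, and it was -0.52 and -0.50 in the 2 parental populations.

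BAMBI, a pseudoreceptor without a kinase that dampens signalling by TGF-beta and BMP receptors, read 8.60 and 8.69 in 180D cells and 8.74 and 8.93 in 180U cells. The 180D arrays lay below the 180U arrays, with a change of -0.19 ± 0.09 and a limma adjusted p of 0.284. In KYSE30 it read 6.86 and 6.74 in 30D cells, against 6.33 and 6.47 in 30U cells. Both 30D arrays lay above both 30U arrays. The change was 0.40 ± 0.09, a level 1.32-fold higher, with a limma adjusted p of 0.0211. This call was lost when any 1 of the 4 KYSE30 arrays was left out (highest adjusted p 0.124) and with the parental population as a block (0.0645).

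SMAD7, the inhibitory SMAD that blocks TGFBR1 and recruits ubiquitin ligases to it, read 6.21 and 6.29 in 180D cells, against 6.14 and 6.44 in 180U cells, and 6.31 and 6.44 in 30D cells, against 6.66 and 6.63 in 30U cells. The KYSE180 groups overlapped and the 30D arrays lay below the 30U arrays. The change was -0.04 ± 0.10 in KYSE180 (limma adjusted p 0.856) and -0.27 ± 0.10 in KYSE30 (0.117). The KYSE30 change passed in a fit of the KYSE30 arrays alone (0.0453) and when a 180U array was left out (0.0406), but had an adjusted p of 0.169 with the parental population as a block and up to 0.395 with another array left out.

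PMEPA1, a membrane protein that keeps SMAD2 and SMAD3 from the receptor, read 8.10 and 8.01 in 180D cells, against 7.65 and 7.86 in 180U cells, and 9.54 and 9.55 in 30D cells, against 9.43 and 9.34 in 30U cells. It was the only one of the 4 inhibitors whose D arrays lay above the U arrays in both lines. The change was 0.30 ± 0.08 in KYSE180 (limma adjusted p 0.0972, or 0.0209 with an intensity trend and 0.282 without the first 180D array) and 0.16 ± 0.08 in KYSE30 (0.233).

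ID1 and ID3, inhibitors of basic helix-loop-helix transcription factors, both fell in 30D cells and did not pass the test in KYSE180. There ID1 read 11.31 and 11.31 in 180D cells and 11.23 and 11.34 in 180U cells, which overlap, with a change of 0.03 ± 0.06 (limma adjusted p 0.854) that turned to -0.02 with the arrays centred on their medians. ID3 read 9.88 and 9.92 in 180D cells, against 9.67 and 9.72 in 180U cells. Its D arrays lay above its U arrays by 0.20 ± 0.05, which did not pass the test (limma adjusted p 0.106, or 0.0173 with an intensity trend and 0.186 without the first 180D array).

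In KYSE30 ID1 read 11.90 and 11.90 in 30D cells, against 12.41 and 12.37 in 30U cells. ID3 read 10.13 and 10.08 in 30D cells, against 10.58 and 10.65 in 30U cells. For both genes the 30D and 30U arrays were apart by several times the difference within a group. The change was -0.50 ± 0.06 for ID1 (1.41-fold lower, limma adjusted p 0.00234) and -0.51 ± 0.05 for ID3 (1.42-fold lower, 0.00185). By parental population it was -0.51 and -0.48 for ID1, and -0.45 and -0.57 for ID3.

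In the test of the difference between the lines' changes 7 of the 10 genes passed, against 12.2% of all genes, 6 with a positive and 1 with a negative difference, against 6.94% and 5.21%. One of them was TGFB2, whose KYSE180 levels lie below the filter value, so that its difference is not read, which leaves 6 genes. The difference, KYSE180 minus KYSE30, was 0.71 ± 0.08 for ID3 (limma adjusted p 0.00243) and 0.52 ± 0.08 for ID1 (0.00868). Without the first 180D array it was 0.73 for ID3 (0.00867) and 0.52 for ID1 (0.0253). For TGFBR2 it was 0.76 ± 0.12 (0.00906), or 0.65 without that array (0.0179), but 0.43 with the mean of its probe sets, a lost call (0.112). It was 0.55 ± 0.09 for SKIL (0.0124), or 0.50 without the first 180D array (0.0351), a call lost without the first 30U array (0.0534) or the second 30D array (0.0532) and with the mean of its probe sets (0.26, 0.143). BAMBI differed the other way, by -0.59 ± 0.12 (0.0234), a call lost with the parental population as a block (0.0727) and without any 1 of 5 arrays, the first 180D and the second 180U among them (highest adjusted p 0.0858). TGFBR1 differed by 0.31 ± 0.07 (0.0359), a call lost without any 1 of the 8 arrays (0.0545 to 0.138). TGFB1, SMAD7 and PMEPA1 did not pass, with differences of -0.08 ± 0.08, 0.22 ± 0.14 and 0.15 ± 0.11. The median difference of the 10 genes was 0.41, against 0.01 over all genes, but it still counts the TGFB2 value that is not read.

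**Figure D2:**
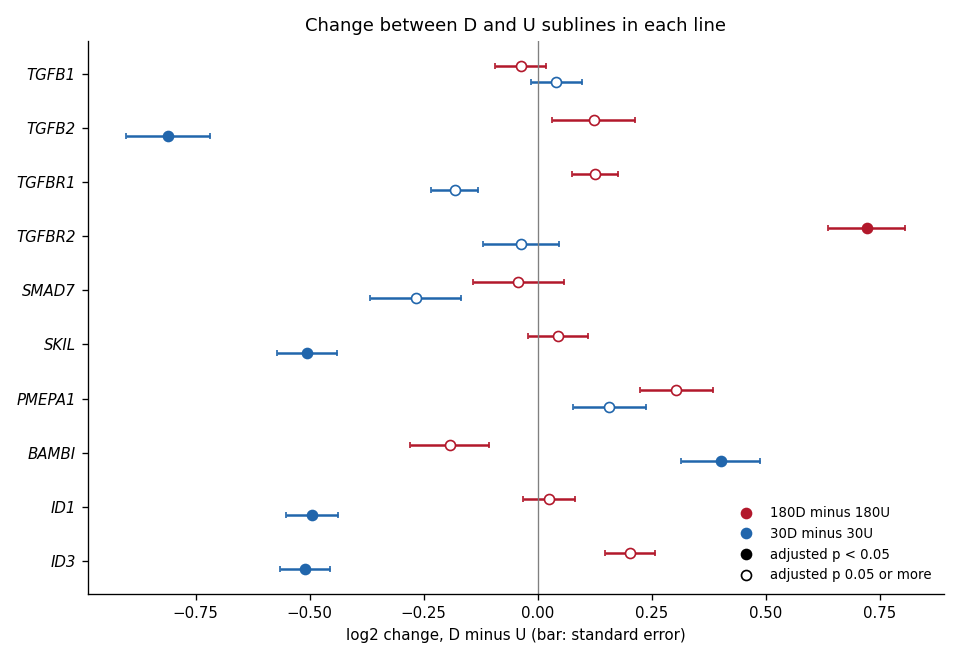
Log2 change, D minus U, of each of the 10 genes in KYSE180 and in KYSE30, with standard errors from the limma fit of 2 arrays per group. Filled points passed the test. TGFBR2 lies at 0.72 in KYSE180, and TGFB2, SKIL, ID1 and ID3 lie between -0.81 and -0.50 in KYSE30.

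The lines themselves differed at 9 of the 10 genes, TGFB2 among them, where 71.4% of all genes passed the same test. KYSE180 was higher than KYSE30 for 2 of them. TGFB1 averaged 6.87 over the KYSE180 arrays and 5.88 over the KYSE30 arrays, a difference of 0.98 ± 0.04 (1.98-fold, limma adjusted p 2.88e-07), and BAMBI differed by 2.14 ± 0.06 (4.41-fold, 4.71e-08). KYSE180 was lower for the other 7. TGFB2 was at least 10.0-fold lower in KYSE180, measured from the filter value because the KYSE180 arrays lie below it. It entered the tests only through KYSE30, so its direction followed from the filter. Its call, counted in the 9 and the 7, is therefore not read. PMEPA1 was 2.95-fold lower in KYSE180 (limma adjusted p 1.6e-07), TGFBR1 2.20-fold lower (8.15e-08), ID1 1.80-fold lower (6.97e-07) and ID3 1.48-fold lower (5.61e-06).

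The smallest differences that passed were those of TGFBR2 and SMAD7. TGFBR2 was lower in KYSE180 by 1.19-fold (limma adjusted p 0.0066), although the 180D arrays overlapped the KYSE30 arrays, and the mean of its probe sets did not pass (-0.18, 0.0628). SMAD7 was 1.18-fold lower (0.0171), a call lost without the second 30D array (0.0581) or the first 180D array (0.0559). SKIL did not pass, with a difference of -0.10 ± 0.05 (0.102). The arrays of the lines did not overlap for 7 of 10 genes, TGFB2 again among them, against 63.1% of all genes. By group mean, TGFB1 ran 180U, 180D, 30D, 30U from high to low, with overlap of the 2 KYSE180 groups and of the 2 KYSE30 groups. TGFBR2 ran 180D, 30U, 30D, 180U, with the 180D and 30U arrays overlapping, and SKIL ran 30U, 180D, 180U, 30D.

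Several genes have further probe sets, 14 in all over 6 of the 10 genes, and not all of them moved with the one used. The fall of TGFB2 in 30D cells was -0.42 ± 0.12 on 209909_s_at (limma adjusted p 0.0646 over all probe sets) and -0.38 ± 0.24 on 220407_s_at (0.359), while 220406_at stayed between 4.79 and 5.10 on all arrays of both lines. For SKIL the change in KYSE30 was -0.13 on 217591_at (0.345) and 0.09 on 206675_s_at (0.737), and the mean over its probe sets did not pass (0.123). On 206675_s_at SKIL was 0.61 higher in KYSE180 than in KYSE30 (0.00079), the opposite direction to the probe set used. On 217591_at the difference was -0.43 (0.000305), in the direction of the probe set used.

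TGFBR2 has 1 other probe set, 207334_s_at, a dim one at 4.31 to 4.89, with a change of 0.16 ± 0.17 in KYSE180 (limma adjusted p 0.685). Averaged over both probe sets, the TGFBR2 rise did not pass (0.0786). For PMEPA1 all 3 probe sets were lower in KYSE180, by -1.56, -1.0 and -0.91, and for TGFBR1 all 3 were lower, by -1.14, -1.80 and -0.27. The mean over the TGFBR1 probe sets gave no difference of changes past the threshold (0.646). TGFB1 was higher in KYSE180 on its other probe set by 0.26 (0.041). SMAD7, BAMBI, ID1 and ID3 have 1 probe set each, so their values could not be checked in this way.

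**Figure D3:**
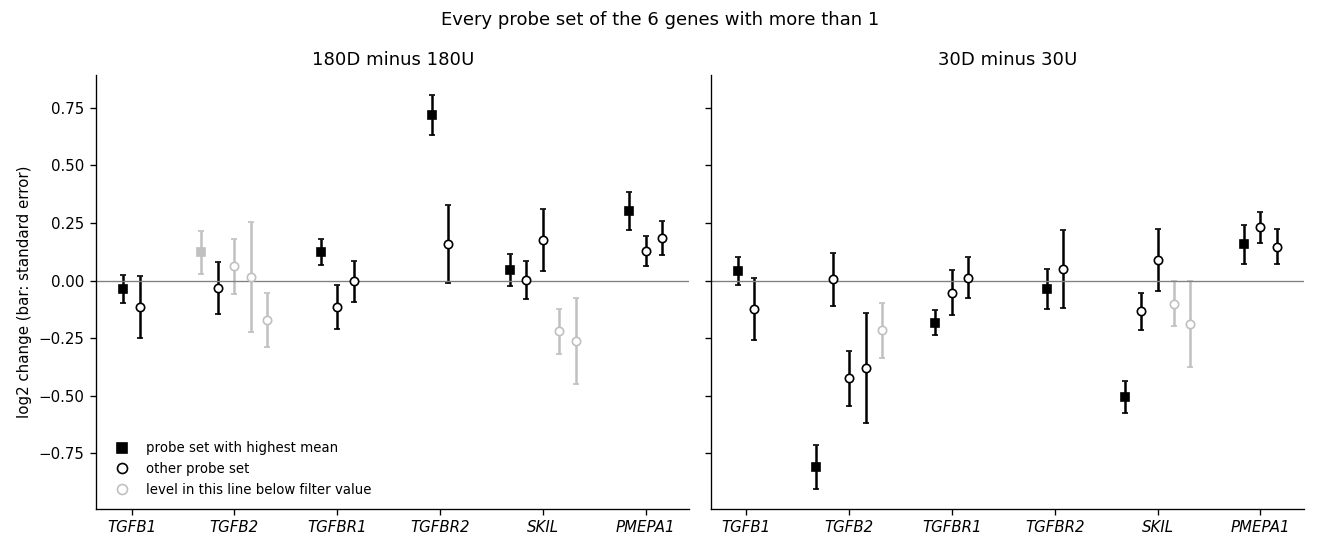
Log2 change, D minus U, in KYSE180 and in KYSE30 for every probe set of the 6 genes with more than 1, with standard errors. Squares are the probe sets used, circles the others, and grey ones have a level in that line below the filter value. The probe sets of TGFB2 and of SKIL spread widely in KYSE30.

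Beyond the 10 genes, 82 genes of the same pathway were listed by role, of which 78 were measured and 73 tested. In KYSE180, 8 of the 73 rose and 3 fell in the D cells, against 2.55% and 1.21% of all genes, and their median change was 0.04. In KYSE30, 10 rose and 15 fell, against 8.42% and 8.12% of all genes, with a median of 0.01.

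Of 10 tested ligands, GDF15 and BMP2 rose in 180D cells, while in 30D cells BMP7 and GDF15 fell and BMP2 and BMP4 rose. GDF15, a stress-induced relative of the family, read 5.0 and 5.09 in 180D cells, against 4.36 and 4.30 in 180U cells, which lie under the filter value, so it rose at least 1.5-fold from that value (limma adjusted p 0.00154, or 0.00949 without the first 180D array). In KYSE30 it read 7.85 and 7.95 in 30D cells, against 9.42 and 9.42 in 30U cells, a change of -1.52 ± 0.06 (3.82e-05). The gene thus moved in opposite directions in the lines. The change of BMP7 in KYSE30 was -0.80 ± 0.09 (0.00216), but -0.18 with the mean of its probe sets, which did not pass (0.183), and that of BMP4 was 0.38 ± 0.05 (0.00356). BMP2 changed by 0.41 ± 0.07 in KYSE180 (0.028), lost with the parental population as a block (0.0748), with the mean of its probe sets (0.18) and without the first 180D array (0.122), and by 0.44 ± 0.07 in KYSE30 (0.00774), lost without the first 30U or the second 30D array.

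Of the 9 tested genes that hold or release the latent ligand, THBS1, a secreted activator of latent TGF-beta, rose in 180D cells by 0.57 ± 0.06 (limma adjusted p 0.00494), and by 0.64 without the first 180D array (0.0165). LTBP1 and ITGB8 fell in 30D cells. LTBP1, which tethers latent TGF-beta to the matrix, changed by -0.52 ± 0.08 (0.00586). ITGB8, the partner of the alpha-v integrin that activates it, changed by -0.72 ± 0.06 (0.000491).

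Of 9 other receptors and co-receptors, none passed in KYSE180 by limma, against 3.75% of all genes. The BMP co-receptor RGMB (0.41 ± 0.06, limma adjusted p 0.00527) and the activin receptor ACVR2A (0.24 ± 0.05, 0.0173) rose in 30D cells. The ACVR2A call was lost without any 1 of the KYSE30 arrays (up to 0.119), with the parental population as a block (0.054) and with the mean of its probe sets (0.102). Of 7 SMADs and SMAD partners, SMAD9, which carries the BMP signal, rose in 180D cells, with 5.14 and 4.99 there against 4.49 and 4.56 in 180U cells (0.54 ± 0.07, 0.00911), a call lost without the first 180D array (0.0538) or the first 180U array (0.0593). SMAD1, of the same branch, fell in 30D cells, with 7.55 and 7.50 there against 8.11 and 8.03 in 30U cells (-0.55 ± 0.07, 0.00314).

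Of 15 other inhibitors, SMAD6 rose in 180D cells, while in 30D cells SMAD6 and TGIF1 fell and FST and NOG rose. SMAD6, the inhibitory SMAD of the BMP branch, read 6.23 and 6.18 in 180D cells, against 5.73 and 5.38 in 180U cells, a change of 0.65 ± 0.12 (limma adjusted p 0.029) that was lost with the parental population as a block (0.0689), with the mean of its probe sets (0.15, 0.368) and without the first 180D array (0.134). In KYSE30 it read 7.0 and 6.94 in 30D cells, against 7.77 and 7.61 in 30U cells, a change of -0.72 ± 0.12 (0.00731) that missed the threshold without the first 30U array (0.0501) and with the mean of its probe sets (-0.28, 0.0556). The activin trap FST changed by 0.46 ± 0.06 in KYSE30 (0.00314). The BMP trap NOG changed by 0.32 ± 0.08 (0.0365), lost without any 1 of 6 arrays, without the filter (0.0647), with centred arrays (0.056) and with an intensity trend (0.0749). TGIF1, a corepressor of SMADs, changed by -0.25 ± 0.05 (0.0207), lost with the block (0.0589), with the mean of its probe sets (0.189) and without any 1 of the KYSE30 arrays (up to 0.125).

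Among 16 tested targets of TGF-beta there was no common direction in either line. In KYSE180 2 were higher and 2 lower, against 2.55% and 1.21% of all genes, with a median of -0.08. In KYSE30 4 were higher and 5 lower, against 8.42% and 8.12% of all genes, with a median of -0.05. NEDD9, a scaffold protein of focal adhesions, read 9.23 and 9.12 in 180D cells, against 8.23 and 8.23 in 180U cells, a change of 0.95 ± 0.06 (limma adjusted p 0.000266, or 0.89 and 0.00259 without the first 180D array). In KYSE30 it moved the other way, with 7.14 and 7.11 in 30D cells, against 8.41 and 8.43 in 30U cells, a change of -1.29 ± 0.06 (4.9e-05). In KYSE180 the collagen COL4A1 rose by 0.71 ± 0.05 (0.000819), and by 0.67 without the first 180D array (0.00818). The matrix protein TNC changed there by -0.38 ± 0.07 (0.0404) and TSC22D1 by -0.23 ± 0.05 (0.0473), both lost with the parental population as a block (0.107 and 0.132) and without the first 180D array (0.12 and 0.122), and TSC22D1 also with the mean of its probe sets (0.488).

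In KYSE30 CDKN1A, the cell cycle inhibitor p21, changed by -0.95 ± 0.07 (limma adjusted p 0.000299). TNC changed by -0.44 ± 0.07 (0.0087), lost without the second 30U or the first 30D array. CCN2 and KLF10 also fell and SNAI2, CCN1, ADAM19 and PDGFB rose, genes named here after their values were seen, and each of these 6 calls was lost without any 1 of at least 3 arrays.

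**Figure D4:**
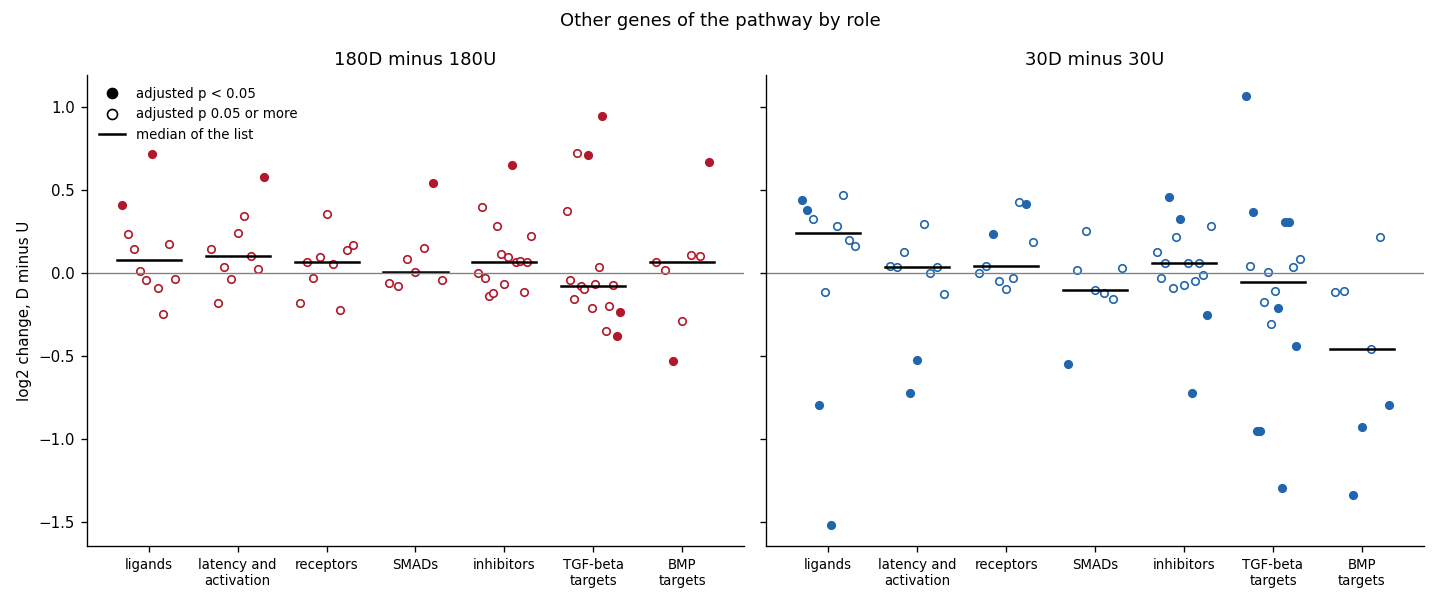
Log2 change, D minus U, of every tested gene of the 7 other pathway lists in KYSE180 and in KYSE30, with the median of each list as a bar. Filled points passed the test. The BMP targets have the lowest median in KYSE30, at -0.46.

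Targets of BMP were set beside ID1 and ID3. In KYSE180 they did not share a direction. There 1 of 7 was higher and 1 lower, against 2.55% and 1.21% of all genes, with a median of 0.07. MSX2, a homeobox gene, rose, with 6.70 and 6.63 in 180D cells against 6.05 and 5.94 in 180U cells (0.67 ± 0.06, limma adjusted p 0.00233, or 0.63 and 0.0226 without the first 180D array). HEY1, a repressor that Notch also induces, fell, with 8.33 and 8.48 in 180D cells against 8.93 and 8.94 in 180U cells (-0.53 ± 0.06, 0.00584, or -0.46 and 0.0281 without the first 180D array). ID2 read 9.61 and 10.00 in 180D cells, the lower value on the first 180D array, against 10.10 and 10.08 in 180U cells, and did not pass.

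In KYSE30 3 of the 7, HEY1, MSX2 and ID2, fell in the D cells, against 8.12% of all genes. None of the 7 rose by limma, against 8.42% of all genes, which says little with so few genes. The median of the 7 was -0.46, against 0.01 over all genes. HEY1 read 7.97 and 7.90 in 30D cells, against 9.28 and 9.25 in 30U cells (-1.34 ± 0.06, limma adjusted p 7.45e-05). ID2 read 9.67 and 9.63 in 30D cells, against 10.61 and 10.54 in 30U cells (-0.92 ± 0.12, 0.00314). MSX2 read 8.20 and 8.15 in 30D cells, against 9.01 and 8.93 in 30U cells (-0.79 ± 0.06, 0.00055). For all 3 genes the 30D arrays lay well below the 30U arrays. ID4 read 6.06 and 6.12 in 30D cells and 6.54 and 6.56 in 30U cells and did not pass, and neither did ATOH8, MSX1 and GATA2.

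**Figure D5:**
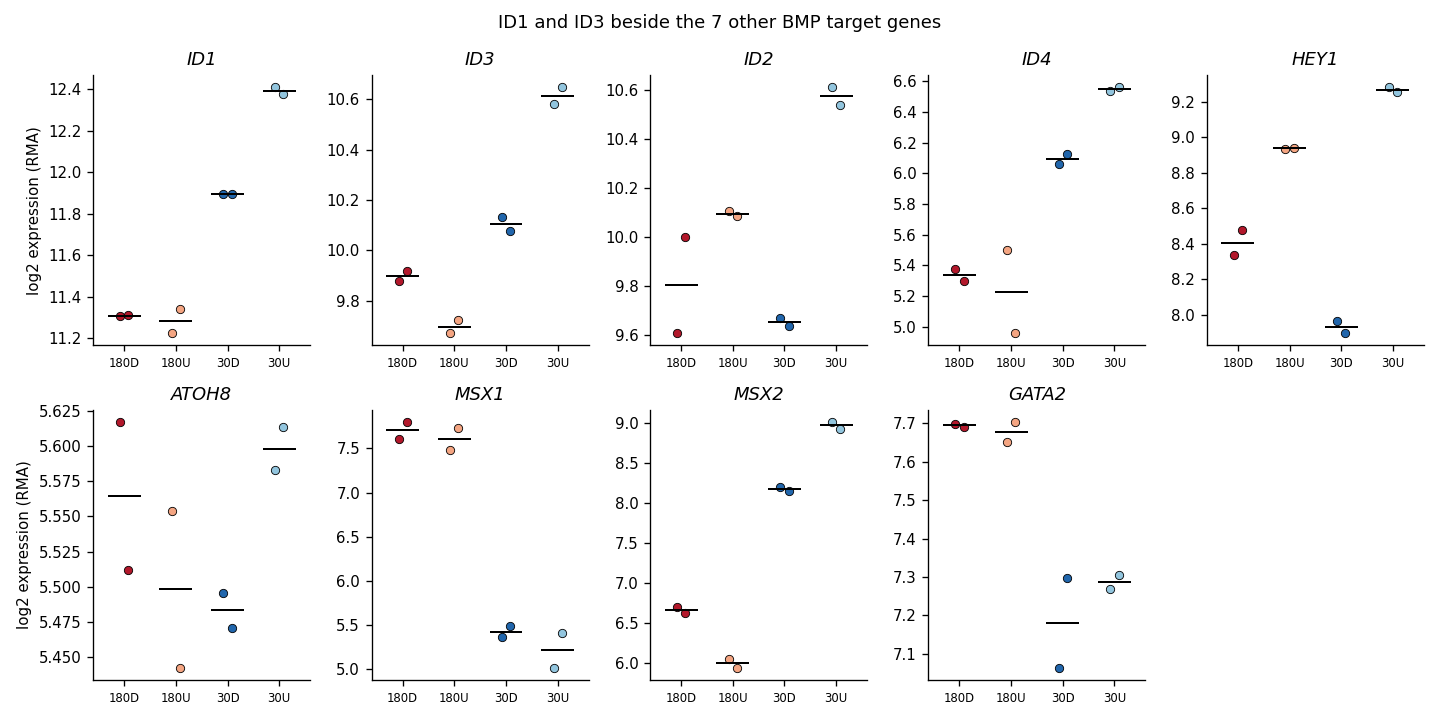
Log2 expression (RMA) of ID1, ID3 and the 7 other BMP targets on each of the 8 arrays, with groups in the order 180D, 180U, 30D and 30U. Points are arrays, bars are group means and each panel has its own axis. MSX2 lies higher and HEY1 lower in 180D than in 180U cells, and ID1, ID3, ID2, HEY1 and MSX2 lie lower in 30D than in 30U cells.

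Between the lines, 18 of the 73 genes were higher and 44 lower in KYSE180, against 38.7% and 32.7% of all genes, and their median difference was -0.34. Targets of TGF-beta stood lowest, with 13 of 16 lower, 1 higher (NEDD9, by 0.93) and a median of -0.77. The 13 and the 44, and both medians, include CDKN2B, FN1 and ADAM19, and the 44 also includes NOG. The KYSE180 means of these genes lay below the filter value, so they entered the tests only through KYSE30 and could only come out lower in KYSE180. TGFBI, a secreted matrix protein, differed by -6.01 ± 0.05 (limma adjusted p 1.85e-10) and CCN1 by -4.18 ± 0.06 (1.79e-09). CDKN2B, the cell cycle inhibitor p15, was at least 22.2-fold lower in KYSE180, measured from the filter value. Of the receptors, 7 of 9 were lower, with TGFBR3, the co-receptor betaglycan, at -3.88 ± 0.07 (6.25e-09), ACVR1 at -0.51 ± 0.04 and ACVR2A at -0.48 ± 0.03. Among the ligands GDF15 (-3.97 ± 0.04) and BMP4 (-2.56 ± 0.03) were lower in KYSE180 and BMP7 (3.54 ± 0.06) was higher. Among the latency genes ITGAV (-1.61 ± 0.04) and LTBP3 (-0.95 ± 0.04) were lower and ITGB8 (1.18 ± 0.04) was higher.

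Among the SMADs, SMAD3, which carries the TGF-beta signal, was lower in KYSE180 (-0.82 ± 0.06, limma adjusted p 6.77e-06), whereas SMAD1 (1.30 ± 0.05) and the shared SMAD4 (0.47 ± 0.04) were higher. Of the inhibitors, FST was higher (2.14 ± 0.04) and FKBP1A, which holds the type I receptor inactive, was lower (-1.35 ± 0.04). NOG lay below the filter value in KYSE180 and was at least 4.57-fold lower there, measured from that value. Of the BMP targets MSX1 (2.33 ± 0.10) and GATA2 (0.45 ± 0.06) were higher and MSX2 (-2.24 ± 0.05) and ID4 (-1.04 ± 0.11) were lower.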

How the data were processed

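Gene expression was measured on 8 Affymetrix arrays with 54675 probe sets. The deposited values are log2 expression made by the authors with RMA (version not given in the sources used here), per the submitters' processing notes. RMA makes the arrays' distributions alike and compresses low signals, so fold changes are understated where signals are dim. The microRNA arrays that the labels mention were not analysed here.

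The platform annotation gave the genes of the probe sets, and symbols were updated through a RefSeq table of GRCh38.p14. Of them 41091 had 1 symbol, 1801 several and 11721 none. The 10 genes have 24 probe sets. Those with a mean under the 40th percentile (log2 4.46) were left out, and the probe set with the highest mean stood for a gene, which left 14180 of 19775 genes. A group of 2 arrays is judged with the spread shared by all 4 groups.

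Tests used limma 3.58.1 (lmFit, eBayes, two-sided) in R 4.3.3 on group means, with Benjamini-Hochberg adjustment over all genes and an adjusted p under 0.05 as the threshold. The script was tested on simulated data. The number of arrays limits the precision. Labels pair D with U arrays by parental population: equal replicate numbers in KYSE30, and crossed ones in KYSE180 (the first 180U with the second 180D array, the second 180U with the first 180D array). Deviations from group means correlated at -0.023 within KYSE30 pairs and 0.02 within KYSE180 pairs. With 2 arrays per group the 2 pairs of a line must give the same value, so this is no check of the pairing. A fit with the population as a block was an alternative, with duplicateCorrelation (statmod 1.5.0) for the difference between the lines. Other alternatives were other filters, the mean of a gene's probe sets, centred arrays, an intensity trend, the arrays of 1 line alone, and leaving out each array.

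The genes and lists were chosen with earlier results of these data known, so counts over them are descriptions. Always named were the 10 genes, and of each other list up to 3 genes with the smallest p past the threshold, with all where 5 or fewer passed within a line or for the difference. GATA2, ATOH8 and FN1 are named outside this rule. So are ADAM19 between the lines and, in the comparisons concerned, the genes said to be named after their values were seen. Where a line's mean lay below the filter value, a fold was taken from that value. Sequences are from RefSeq.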

Additional observations from a re-analysis of the deposited data

Results flagged for a closer look

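The change, D minus U, differed between the lines, by limma's test of the difference itself, for 6 of the 10 genes. This leaves out TGFB2, which is below the filter value in KYSE180. The change also differed for 22 of the 73 other pathway genes, 16 with a positive and 6 with a negative difference. Of all genes 12.2% passed this test, 6.94% with a positive and 5.21% with a negative difference. Values are KYSE180 minus KYSE30 on the log2 scale, and the cause was not tested. Among the 10 genes it was 0.31 for TGFBR1, 0.76 for TGFBR2, 0.55 for SKIL, -0.59 for BAMBI, 0.52 for ID1 and 0.71 for ID3. Among the ligands and latency genes it was 2.23 for GDF15, 0.81 for BMP7, 0.69 for ITGB8, 0.7 for THBS1 and 0.76 for LTBP1. For the activin receptor ACVR2A it was -0.26. Among SMADs and inhibitors it was 0.7 for SMAD9, 0.49 for SMAD1, 1.37 for SMAD6, -0.6 for FST and 0.32 for TGIF1. Among targets it was 2.24 for NEDD9, 0.87 for CDKN1A, 0.7 for COL4A1, 1.46 for MSX2, 0.81 for HEY1 and 0.63 for ID2. Further TGF-beta targets past the same test, named after their values were seen, were CCN2 at 1.67, SNAI2 at -0.50, PDGFB at -0.65, TSC22D1 at -0.31 and CCN1 at -0.53. Of these, PDGFB was lost with the parental population as a block (limma adjusted p 0.0507) and without the first 30D array (0.0565), TSC22D1 with the block (0.0783) and without any 1 of 6 arrays (up to 0.11), and CCN1 without any 1 of 6 arrays (up to 0.106). Among the genes named by rule, the parental population as a block ended 6 calls, those of TGFBR1 (limma adjusted p 0.095), BAMBI (0.0727), ACVR2A (0.11), SMAD1 (0.0594), TGIF1 (0.0957) and ID2 (0.0616). The mean of a gene's probe sets ended those of TGFBR1 (0.646), TGFBR2 (0.112), SKIL (0.143), BMP7 (0.14, 0.462), ITGB8 (0.0813), LTBP1 (0.067), ACVR2A (0.458), SMAD6 (0.43, 0.0514) and TGIF1 (0.318). Leaving out the first 180D array ended those of TGFBR1 (0.0658), BAMBI (0.0669), ACVR2A (0.0658), SMAD1 (0.0544) and TGIF1 (0.0672). The value for ID2 was 0.83 without that array, which stood apart in 2 controls of RNA quality. Without any 1 KYSE30 or 180U array it lay between 0.60 and 0.67, and the ID2 call was lost. The ID2 call was also lost without the filter on dim probe sets (limma adjusted p 0.0806) and with centred arrays (0.0668). Lacking that filter, TGFBR1 (0.0787), ACVR2A (0.105) and TGIF1 (0.0835) were lost too. Other arrays ended calls as well, any array for ACVR2A, any but the second 180U for TGIF1, and any KYSE30 array or the second 180U for SMAD1.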

How the results depend on the processing

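With 2 arrays per group, counts of called genes moved with the processing. Between 180D and 180U cells 532 genes passed, but 311 without a filter on dim probe sets, 230 with the parental population as a replicate block, 1069 with an intensity trend and 195 with the KYSE180 arrays alone. For the difference of changes 1723 passed, but 1142 without the filter, 1011 with the block and 2700 with the trend. Of the 10 genes, 0 passed between 180D and 180U cells with the mean of each gene's probe sets and 3 with the trend, and 4 passed for the difference of changes with the mean of probe sets. The block left 1 of the 10 between 180D and 180U cells, 4 between 30D and 30U cells, 5 for the difference and 9 between the lines. Of all 14180 genes it left 1716 between 30D and 30U cells and 10104 between the lines. It changed no call of the 10 genes beside those given. Counts of the 10 genes for the difference and between the lines include TGFB2, which entered the tests only through KYSE30. Leaving out 1 array gave 209 to 502 genes in KYSE180, 834 to 2553 in KYSE30, 727 to 1702 for the difference and 9537 to 10082 between the lines. Of the 10 genes it left 1 in every case in KYSE180, 4 to 6 in KYSE30, 4 to 6 for the difference and 8 to 9 between the lines. The lowest count in KYSE180 came without the first 180D array.

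Small changes turned direction. The mean of probe sets gave -0.042 for TGFB1 and 0.0071 for TGFBR2 in KYSE30, and 0.025 for SKIL between the lines. In KYSE180 leaving out 1 array gave -0.076 to 0.0013 for TGFB1, -0.19 to 0.10 for SMAD7, -0.0049 to 0.095 for SKIL and -0.034 to 0.084 for ID1, and centring gave -0.016 for ID1. Other probe sets turned the direction too. TGFB1 gave -0.12 in KYSE30 and 0.011 for the difference. TGFB2 on 220406_at gave 0.0046 in KYSE30, -0.032 in KYSE180, -0.037 for the difference and 0.018 between the lines, and -0.17 on 209908_s_at in KYSE180. On the probe set used, TGFB2 is not read in KYSE180 or for the difference. TGFBR1 gave -0.11 in KYSE180 and -0.061 for the difference on 236561_at, and on 206943_at 0.012 in KYSE30, -0.0040 in KYSE180 and -0.016 for the difference. TGFBR2 gave 0.051 in KYSE30. SKIL gave 0.088 in KYSE30 and 0.61 between the lines on 206675_s_at. In KYSE180, for the difference and between the lines it gave -0.22, -0.12 and 0.068 on 215889_at, and -0.26, -0.075 and 0.24 on 232379_at. Both of these probe sets have means below the filter value, as has 209908_s_at of TGFB2, and none of the values given for them passed the test. PMEPA1 gave -0.10 for the difference. The cause was not tested.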
